A study of Saccharomyces cerevisiae with 12 samples.

Results

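Yeast cells remove sodium with pumps of the ENA family and with antiporters that exchange sodium for protons. The genes described here are 5 of the 7127 rows with SGD identifiers in the deposited table. They are the sodium pump genes ENA1, ENA2 and ENA5, the plasma membrane antiporter gene NHA1 and the endosomal antiporter gene NHX1. They were taken by name, and all 5 passed the filter on low counts. RNA was sequenced from strain BY4742, a haploid laboratory strain labelled WT, in 12 libraries. The 4 groups of 3 biological replicates each were grown with 2% glucose and 7 mM K, 2% glucose and 1 mM K, 0.5% glucose and 7 mM K, or 0.5% glucose and 1 mM K. K is potassium, added as the chloride salt according to the titles. The study's title concerns chronological lifespan, so the comparisons ask how less potassium and less sugar act on these genes. The sodium content of the media, their pH and the stage of growth at harvest are not given in the sources used here.

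The ENA proteins are P-type ATPases, which spend ATP to move sodium, lithium and potassium out of the cell across the plasma membrane. Transcription of ENA1 is known to be raised by salt and alkaline pH through calcineurin and its factor Crz1, the osmotic stress kinase Hog1 and the Rim101 pathway, and to be repressed by Mig1 when glucose is plentiful. Nha1 exchanges sodium or potassium for protons at the plasma membrane, so that it works mainly at acidic pH, while the ENA pumps work at alkaline pH. Nhx1, also named Vps44, exchanges sodium or potassium for protons in the late endosome and takes part in sorting to the vacuole.

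SGD counts summed to between 5634205 and 7036345 a library. Another 34.0% to 41.6% of all counts stood at rows with WBGene identifiers, which were set aside. Levels are CPM (counts scaled to equal library size, after TMM scaling over SGD rows), with the standard deviation (SD) over n = 3 libraries. Replicate 2 with 0.5% glucose and 7 mM K stood apart. Across genes, r of its log2 CPM was 0.882 and 0.891 with its partners, whose own r was 0.987. Some of the results that rest on it are therefore also given without it, and others only with it. The strain's identity was read from 13 marker genes. LEU2, LYS2 and URA3, which the strain lacks, were at 0 in every library, and HIS3, of which part remains, measured 3.70 to 177 CPM. Of 5 a-specific genes, the pheromone genes MFA1 and MFA2 were at 0, STE2 and BAR1 stayed at or under 17.7 CPM, and the exporter gene STE6 measured 44.9 to 134 CPM. Of 4 alpha-specific genes, SAG1 measured 104 to 495 CPM, STE3 23.2 to 206 CPM, MF(ALPHA)1 5.26 to 448 CPM and MF(ALPHA)2 3.06 to 22.9 CPM. In bulk RNA, fewer cells of a type and less RNA per cell cannot be told apart.

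ENA1, ENA2 and ENA5 stand head to tail on the minus strand of chromosome IV of genome build R64, at 535192 to 538467, 531307 to 534582 and 527422 to 530697. Each has a coding sequence of 3276 bases, and 609 bases separate each copy from the next. ENA1 and ENA2 were 98.69% identical in coding sequence, ENA1 and ENA5 97.65%, and ENA2 and ENA5 98.96%. The copies differed at 77 sites in all. ENA1 alone differed at 43 of them, of which 41 lay in bases 4 to 270, and ENA5 alone differed at 34, of which 30 lay in bases 3168 to 3275. ENA2 alone differed at 0 sites: it carries the start of ENA5 and the end of ENA1. These stretches are shown because they are what can tell the copies apart, with the differing sites in capitals.
The stretch from base 211 to base 270 of the coding sequence, which sets ENA1 apart at 15 sites, reads 5′ to 3′ on the minus strand (chrIV:538198-538257 in ENA1, chrIV:534313-534372 in ENA2 and chrIV:530428-530487 in ENA5):
ENA1: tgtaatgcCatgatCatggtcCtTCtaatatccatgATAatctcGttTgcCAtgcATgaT
ENA2: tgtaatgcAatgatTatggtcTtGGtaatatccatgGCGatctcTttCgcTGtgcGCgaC
ENA5: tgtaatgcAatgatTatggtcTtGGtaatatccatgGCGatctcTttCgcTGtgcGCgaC
The stretch from base 3216 to base 3275, which sets ENA5 apart at 19 sites, reads (chrIV:535193-535252 in ENA1, chrIV:531308-531367 in ENA2 and chrIV:527423-527482 in ENA5):
ENA1: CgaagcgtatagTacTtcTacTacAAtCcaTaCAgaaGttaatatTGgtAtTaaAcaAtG
ENA2: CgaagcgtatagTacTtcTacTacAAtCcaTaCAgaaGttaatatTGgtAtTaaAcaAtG
ENA5: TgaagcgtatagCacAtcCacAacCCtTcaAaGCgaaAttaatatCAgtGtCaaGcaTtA

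**Figure D1:**
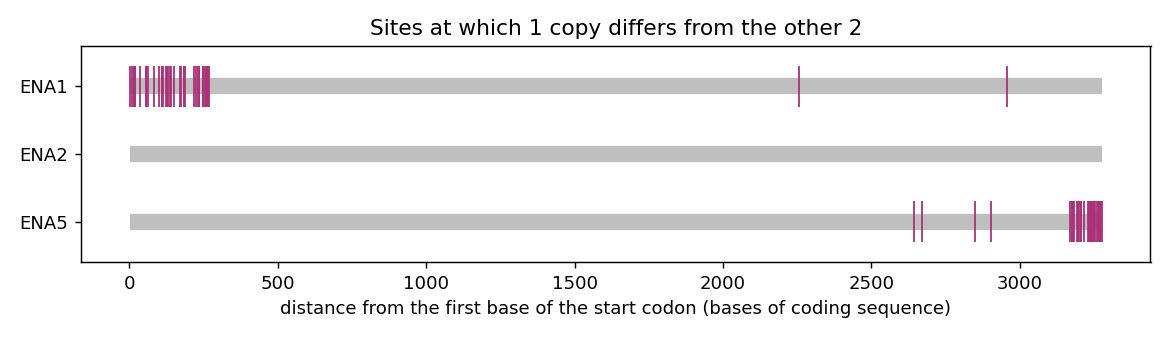
Sites (vertical lines) at which 1 of the 3 ENA genes differs from the other 2, plotted along the coding sequence as the distance in bases from the start codon. Sites of ENA1 gather at the start and sites of ENA5 at the end, and ENA2 has 0 sites of its own.

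Of the 150-base windows of the coding sequence, the read length named in the labels, 18.2% were unique in the genome for ENA1, 15.6% for ENA5 and 3.07% for ENA2. All windows of NHA1 and NHX1 were unique. Most reads of an ENA gene therefore match more than 1 copy, and the counts of single copies depend on how the quantification divided them. The sum of the 3 genes does not depend on that division, except for reads it may have left out, and it is the value the comparisons below lead with.

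Upstream of ENA1, the sites at which glucose repression, calcineurin and the osmotic kinase pathway are known to act lie far from the start codon. The stretch from 770 to 491 bases before the start codon of ENA1 (chrIV:538958-539237, minus strand) is shown because it holds 6 of the 7 matches found in the 900 bases before this gene. The search covered both strands. Capitals mark, from left to right, the Mig1 core GTGGGG on the other strand, GATAAG of the nitrogen GATA factors on the other strand, the stress element AGGGG, the Mig1 core GCGGGG, the Crz1 core GNGGCTCA that overlaps it by 4 bases, and TGACGT of the cyclic AMP response element to which Sko1 binds.
ENA1 upstream: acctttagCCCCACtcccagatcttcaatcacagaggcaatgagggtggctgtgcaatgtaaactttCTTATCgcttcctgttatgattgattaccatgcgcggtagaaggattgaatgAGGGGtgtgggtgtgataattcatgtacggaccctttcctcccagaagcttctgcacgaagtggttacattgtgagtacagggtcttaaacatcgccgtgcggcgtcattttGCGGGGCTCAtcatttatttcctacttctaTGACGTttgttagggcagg
Of 5996 windows of 900 bases before R64 coding genes, 3.69% held GNGGCTCA, 9.84% GCGGGG, 15.6% GTGGGG, 24.1% TGACGT, 36.8% GATAAG and 51.7% AGGGG. The seventh match was CACGTG, the core of the phosphate regulator Pho4, at 853 to 848 bases before the start codon and in 9.96% of windows. GNGGCGCA (in 3.30% of windows) and GCCAAG of Rim101 (in 33.8%) were not found in the window of ENA1. A match is a run of letters and not evidence of binding. Whether the matches are the sites known to act was not examined, and sites that depart from these cores would be missed.

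The 600 bases before the start codons of ENA2 and ENA5 were identical to each other and shared 51.1% of alignment columns with those of ENA1. The 900-base windows of ENA2 and ENA5 held 1 match each, GATAAG on the other strand, 63 to 58 bases before the start codon. Both windows reach past the 609 bases between copies into the next ENA gene. The last 80 bases before each start codon (chrIV:538468-538547 for ENA1, chrIV:534583-534662 for ENA2 and chrIV:530698-530777 for ENA5, minus strand) are shown with that match in capitals, and without gaps ENA1 differed from the other copies at 30 of them.
ENA1: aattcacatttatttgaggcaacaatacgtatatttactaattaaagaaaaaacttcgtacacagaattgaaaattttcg
ENA2: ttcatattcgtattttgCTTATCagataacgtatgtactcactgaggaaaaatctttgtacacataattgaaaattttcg
ENA5: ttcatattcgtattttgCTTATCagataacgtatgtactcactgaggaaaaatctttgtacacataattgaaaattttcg
NHA1 lies on the plus strand of chromosome XII at 418437 to 421394, and the stretch from 470 to 241 bases before its start codon (chrXII:417967-418196) held the Mig1 core GTGGGG, then GATAAG of the GATA factors and the stress element AGGGG, both on the other strand. They are shown in capitals. The 900-base window of NHA1 held 1 more match, GATAAG on the other strand at 811 to 806 bases. Only 327 bases separate NHA1 from RKM5, the gene before it on the same strand. The GTGGGG and GATAAG matches therefore lie within RKM5, and only AGGGG lies between the genes.
NHA1 upstream: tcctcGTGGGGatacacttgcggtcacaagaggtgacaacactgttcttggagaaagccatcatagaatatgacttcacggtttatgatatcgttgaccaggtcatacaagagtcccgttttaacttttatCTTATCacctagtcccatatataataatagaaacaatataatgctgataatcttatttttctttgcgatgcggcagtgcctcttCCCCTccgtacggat
NHX1 lies on the plus strand of chromosome IV at 1367485 to 1369386, and none of the motifs searched was in its 900-base window. That window reaches past the 657 bases that separate NHX1 from the gene GUK1.

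The ENA pumps as a group were lowest in the medium with full glucose and potassium, and highest when glucose alone was lowered. The summed ENA1, ENA2 and ENA5 level was 383, 407 and 405 CPM in the 3 libraries with 2% glucose and 7 mM K, and 817, 828 and 608 CPM with 2% glucose and 1 mM K. It was 1406, 821 and 1364 CPM with 0.5% glucose and 7 mM K, and 647, 577 and 760.1 CPM with both lowered. The 2% glucose 7 mM K group lay below all other libraries. The 2% glucose 1 mM K group overlapped both groups with 0.5% glucose, which did not overlap each other.

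Lowering potassium at 2% glucose raised the ENA sum 1.89-fold (log2 0.91 ± 0.25 SE, edgeR adjusted p = 0.0166). Leaving out 2% glucose 7 mM K replicate 1 (0.89, edgeR adjusted p = 0.0564) or replicate 3 (0.93, edgeR adjusted p = 0.0602) ended the call. At 0.5% glucose the same change in potassium lowered the sum 1.81-fold (log2 -0.86 ± 0.25, edgeR adjusted p = 0.0131), which was -1.06 without 0.5% glucose 7 mM K replicate 2. The call was lost when only those groups were fitted (-0.86, edgeR adjusted p = 0.0958). The difference between both effects of potassium, the interaction, was -1.77 ± 0.35 (edgeR adjusted p = 0.00291). It lay between -1.98 and -1.68 with any single library left out.

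Lowering glucose at 7 mM K raised the ENA sum 3.0-fold (log2 1.59 ± 0.25, edgeR adjusted p = 0.00052). With any single library left out this log2 value was 1.47 to 1.80. At 1 mM K the sum changed by -0.18 ± 0.24 (edgeR adjusted p = 0.609), with a 95% interval from -0.72 to 0.35. Both restrictions against neither gave 0.73 ± 0.24 (edgeR adjusted p = 0.028), and potassium against glucose restriction gave -0.67 ± 0.24 (edgeR adjusted p = 0.0424). The former call ended without any 1 of the 2% glucose 7 mM K libraries or without replicate 1 or 3 of those with both restrictions (0.61 to 0.74). The latter ended without any 1 of the 6 libraries at 2% glucose or without replicate 1 or 3 with 0.5% glucose and 7 mM K (-0.73 to -0.55).

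**Figure D2:**
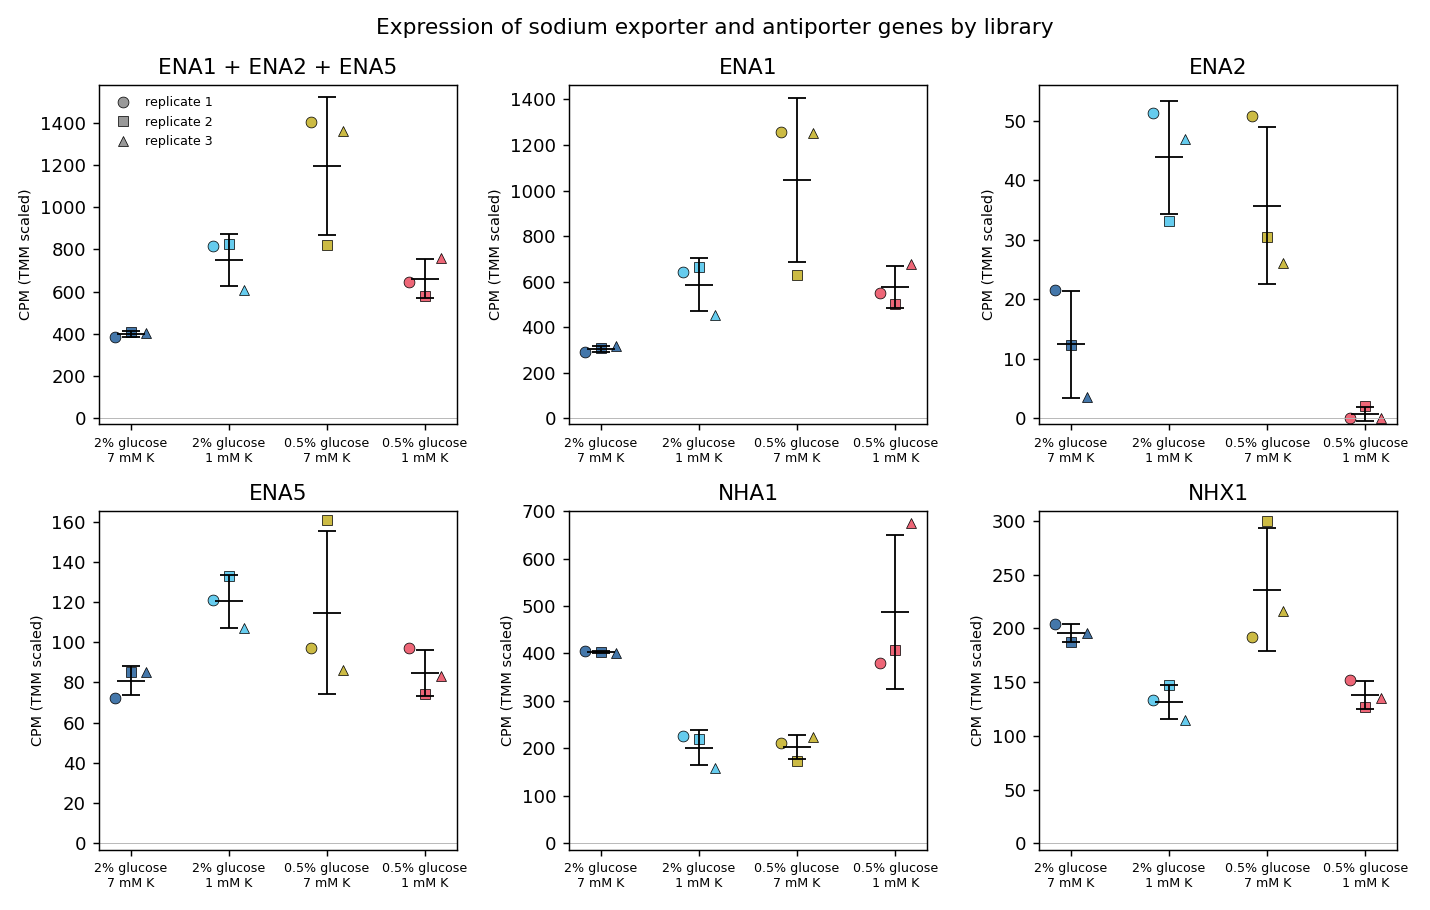
CPM (TMM scaled, linear axes) of the ENA sum and of each gene in the 12 libraries, grouped by medium, with symbols for replicates and black bars for the mean and SD of n = 3. The ENA sum is lowest and NHA1 lies between 401 and 405 CPM in the 3 libraries with 2% glucose and 7 mM K, and the NHX1 points at 7 mM K lie above those at 1 mM K.

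ENA1 carried most of the ENA counts, between 74.7% and 91.8% in single libraries. It measured 305 ± 13.8 CPM with 2% glucose and 7 mM K, 587 ± 115 CPM with 2% glucose and 1 mM K, 1047 ± 361 CPM with 0.5% glucose and 7 mM K and 576 ± 91.0 CPM with both lowered. In the 0.5% glucose 7 mM K group the libraries held 1258, 629.5 and 1252 CPM, so replicate 2 was at about the level of the other restricted groups. Glucose restriction at 7 mM K raised ENA1 by a log2 value of 1.78 ± 0.28 (edgeR adjusted p = 0.000573), or 2.04 with replicate 2 left out. Potassium restriction at 2% glucose raised it by 0.94 ± 0.28 (edgeR adjusted p = 0.0253), a call that ended without any 1 of the 6 libraries compared but 2% glucose 1 mM K replicate 3 (0.86 to 0.97). Its interaction was -1.81 ± 0.39 (edgeR adjusted p = 0.00524). Under glucose restriction at 1 mM K its log2 fold change was -0.03 ± 0.28 (edgeR adjusted p = 0.954). Potassium restriction at 0.5% glucose lowered ENA1, with -0.86 ± 0.28 (edgeR adjusted p = 0.0229), which did not pass without 0.5% glucose 1 mM K replicate 2 (-0.80) or 0.5% glucose 7 mM K replicate 3 (-0.74), nor with only those groups fitted (-0.86, edgeR adjusted p = 0.117).

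ENA5 took 6.31% to 21.1% of the ENA counts. It measured 72.5, 85.0 and 85.4 CPM with 2% glucose and 7 mM K, 121, 133 and 107 CPM with 2% glucose and 1 mM K, 96.9, 161 and 86.0 CPM with 0.5% glucose and 7 mM K, and 96.9, 74.2 and 83.3 CPM with both lowered. All libraries with 2% glucose and 1 mM K lay above those with 2% glucose and 7 mM K, but the log2 change of 0.57 ± 0.21 missed the threshold (edgeR adjusted p = 0.0673). It was called without 0.5% glucose 7 mM K replicate 2, which enters the shared estimate of spread (0.58, edgeR adjusted p = 0.00188), and with the groups compared alone (0.60, edgeR adjusted p = 0.00102). Upper-quartile scaling (0.75), library totals (0.80), WBGene scaling (0.87) and voom with quality weights (0.64) also called it, with adjusted p from 6.93e-05 to 0.0203. Under potassium restriction at 0.5% glucose ENA5 changed by -0.43 without a call, or by -0.10 without 0.5% glucose 7 mM K replicate 2. The interaction of ENA5 passed, at -1.0 ± 0.30 (edgeR adjusted p = 0.0272), and ranged from -1.22 to -0.68 with single libraries left out. It did not pass without replicate 1 or 2 with 2% glucose and 1 mM K, replicate 1 or 3 with 2% glucose and 7 mM K, or replicate 2 or 3 with both restrictions (-1.05 to -0.96).

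ENA2, the copy with no site of its own, had the lowest counts. It held 132, 85 and 22 counts with 2% glucose and 7 mM K, 404, 252 and 393 with 2% glucose and 1 mM K, and 372, 156 and 187 with 0.5% glucose and 7 mM K. With both restrictions it held 0, 11 and 0. A count of 0 in 2 of those libraries allows up to 0.455 and 0.601 CPM (3 counts, on the same TMM scale; counting error alone). The fitted log2 fold change of potassium restriction at 0.5% glucose was -5.76 ± 0.88 (edgeR adjusted p = 0.000313), and that of glucose restriction at 1 mM K was -6.05 ± 0.88 (edgeR adjusted p = 0.00042). These sizes rest on 11 counts in 1 library and depend on the small count that edgeR adds. Leaving out single libraries moved them from -10.92 to -5.13 and from -11.22 to -5.43, with the lowest values when replicate 2 with both restrictions was left out. At 2% glucose, potassium restriction raised ENA2 by a log2 value of 1.82 ± 0.61 (edgeR adjusted p = 0.0449), which DESeq2 did not call (1.79, adjusted p = 0.155). It was also not called without any 1 of the 6 libraries compared but 2% glucose 7 mM K replicate 1 (1.38 to 2.00).

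The division of counts among the copies was not tested between groups, and it varied most within the group with 0.5% glucose and 7 mM K. With 2% glucose and 7 mM K, ENA5 took 18.9%, 20.9% and 21.1% of the ENA counts and ENA1 75.5%, 76.1% and 78.0%. With 0.5% glucose and 7 mM K, ENA5 took 6.89% in replicate 1 (exact 95% binomial interval 6.41% to 7.40%) and 6.31% in replicate 3, but 19.6% (18.4% to 20.8%) in replicate 2. These intervals cover counting error only, and not how reads shared by the copies were divided. ENA1 took 89.5% and 91.8% in those partners and 76.7% in replicate 2. With both restrictions ENA1 took 85.0%, 86.8% and 89.0%. The part that the quantification of shared reads plays in these shares was not tested.

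**Figure D3:**
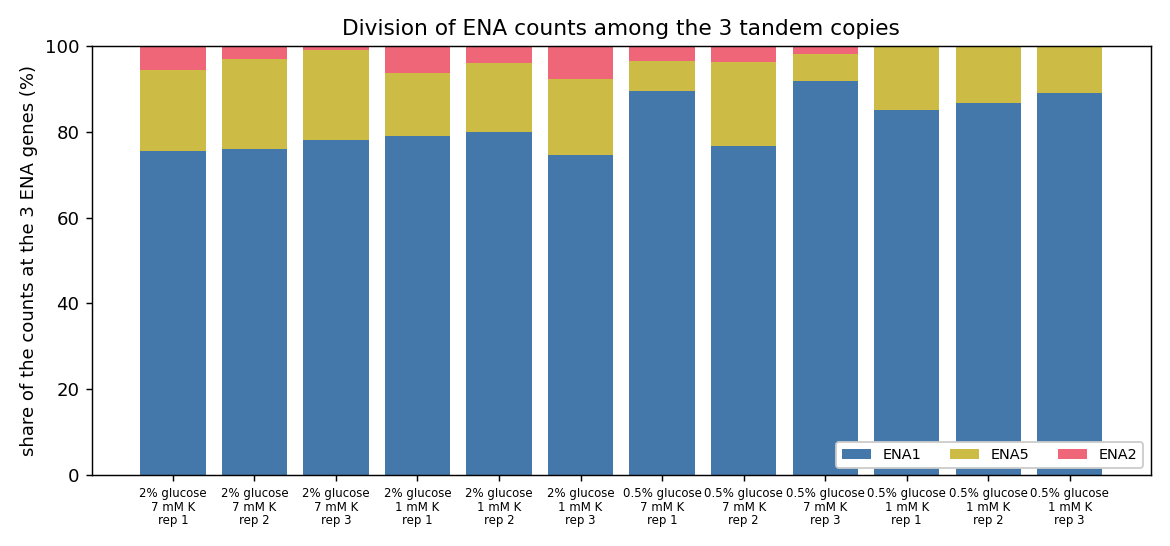
Share of the counts at the 3 ENA genes (percent, stacked to 100) assigned to ENA1, ENA5 and ENA2 in each of the 12 libraries. ENA1 takes 74.7% or more throughout, ENA2 is at or near 0 in the 3 libraries with both restrictions, and ENA5 takes more in replicate 2 of the 0.5% glucose 7 mM K group than in its partners.

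NHA1 was high with full glucose and potassium, at 405, 403 and 401 CPM, and high with both restrictions, at 379, 408 and 675 CPM. It was low when potassium alone was lowered, at 226, 219 and 159 CPM, and when glucose alone was lowered, at 211, 174 and 224 CPM. Both groups with 1 restriction lay wholly below both other groups, and they overlapped each other. The high value with both restrictions in replicate 3 made that group the most spread, at 487 ± 163 CPM.

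Potassium restriction at 2% glucose lowered NHA1 2.00-fold (log2 -1.0 ± 0.24, edgeR adjusted p = 0.00826), and glucose restriction at 7 mM K lowered it 1.98-fold (log2 -0.99 ± 0.24, edgeR adjusted p = 0.00709). These comparisons share the 2% glucose 7 mM K libraries. Starting from 1 restriction, the second raised it. Potassium restriction at 0.5% glucose gave 1.26 ± 0.24 (edgeR adjusted p = 0.00115) and glucose restriction at 1 mM K gave 1.28 ± 0.24 (edgeR adjusted p = 0.0018), and these share the 0.5% glucose 1 mM K libraries. The interaction was 2.26 ± 0.33 (edgeR adjusted p = 0.000548), and between 1.94 and 2.37 with any single library left out. Without 0.5% glucose 1 mM K replicate 3, the rises were 0.94 and 0.96. Both restrictions against neither gave 0.27 ± 0.23 (edgeR adjusted p = 0.348; 95% interval -0.24 to 0.78), and -0.04 without that library. The fall at 2% glucose was not called when libraries were scaled by WBGene counts (-0.71, edgeR adjusted p = 0.0775).

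NHX1 followed potassium at both glucose levels. It measured 204, 187 and 196 CPM with 2% glucose and 7 mM K and 192, 300.2 and 216 CPM with 0.5% glucose and 7 mM K. At 1 mM K it measured 133, 147 and 115 CPM with 2% glucose and 152, 127 and 135 CPM with 0.5% glucose. Every library at 7 mM K lay above every library at 1 mM K, and at each potassium level the glucose groups overlapped.

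Potassium restriction lowered NHX1 1.48-fold at 2% glucose (log2 -0.57 ± 0.17, edgeR adjusted p = 0.0304), and 1.71-fold at 0.5% glucose (log2 -0.78 ± 0.17, edgeR adjusted p = 0.00354), or -0.56 without 0.5% glucose 7 mM K replicate 2. The interaction was -0.21 ± 0.25 (edgeR adjusted p = 0.556; 95% interval -0.74 to 0.33). Glucose restriction gave 0.27 ± 0.17 at 7 mM K (edgeR adjusted p = 0.25; interval -0.11 to 0.65) and 0.06 ± 0.17 at 1 mM K (edgeR adjusted p = 0.818; interval -0.32 to 0.44). The call at 2% glucose was the least firm. It was lost under upper-quartile scaling (-0.38), library totals (-0.33) and WBGene scaling (-0.27), and without any 1 of the 6 libraries compared (-0.64 to -0.50).

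Per kilobase of coding sequence, the genes could be set beside each other. With 2% glucose and 7 mM K, NHA1 stood at 136 ± 0.785 CPM per kilobase, the ENA sum at 122 ± 3.98, NHX1 at 103 ± 4.60, ENA1 at 93.1 ± 4.21 and ENA5 at 24.7 ± 2.24. With 2% glucose and 1 mM K the ENA sum led, at 229 ± 37.8, above NHX1 at 69.4 ± 8.45 and NHA1 at 68.1 ± 12.5, which did not differ beyond their spread. With 0.5% glucose and 7 mM K the ENA sum reached 365 ± 99.7 against 124 ± 29.9 for NHX1 and 68.6 ± 8.81 for NHA1. With both restrictions the ENA sum at 202 ± 28.3 and NHA1 at 165 ± 55.2 overlapped, and NHX1 was at 72.4 ± 6.62.

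Counted over the 5 genes, 4 passed the test for potassium restriction at 2% glucose, where 28.1% of the 6127 genes tested did. ENA1 and ENA2 were higher, as were 13.1% of all genes, and NHA1 and NHX1 lower, as were 15.0%. At 0.5% glucose 4 passed against 48.4% of all genes, with NHA1 higher (23.5%) and ENA1, ENA2 and NHX1 lower (24.9%). Glucose restriction at 7 mM K called 2 (33.9%), with ENA1 higher (16.9%) and NHA1 lower (17.0%). At 1 mM K it called 2 (34.8%), with NHA1 higher (16.3%) and ENA2 lower (18.4%). Both restrictions against neither called 3 (47.4%), with ENA1 higher (22.8%) and ENA2 and NHX1 lower (24.5%). Of 12 fits with 1 library left out, 5 lost that call of NHX1 and 2 that of ENA1. WBGene scaling also lost that of ENA1 (0.79, edgeR adjusted p = 0.0887). Potassium against glucose restriction called ENA1 and NHX1, both lower in the former (23.1%), where 43.9% of all genes passed and 20.9% were higher. That call of ENA1 was lost in 3 of 12 fits with 1 library left out. Library totals (-0.72), WBGene scaling (-0.79), a replicate block (-0.79) and the groups compared alone (-0.82) also lost it. The interaction called 4, all but NHX1, against 29.9% of all genes, with NHA1 above 0 (14.8%) and the 3 ENA genes below (15.2%). Leaving out 0.5% glucose 7 mM K replicate 2 raised the calls over all genes too. Without it, 3 of the 5 rose under potassium restriction at 2% glucose (26.6% of all genes) and 2 under glucose restriction at 7 mM K (22%). At 1 mM K 2 fell (26.9%), and 1 was higher under potassium than under glucose restriction (24.9%). Counts over so few genes, 3 of which share reads, add little to the single values.

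**Figure D4:**
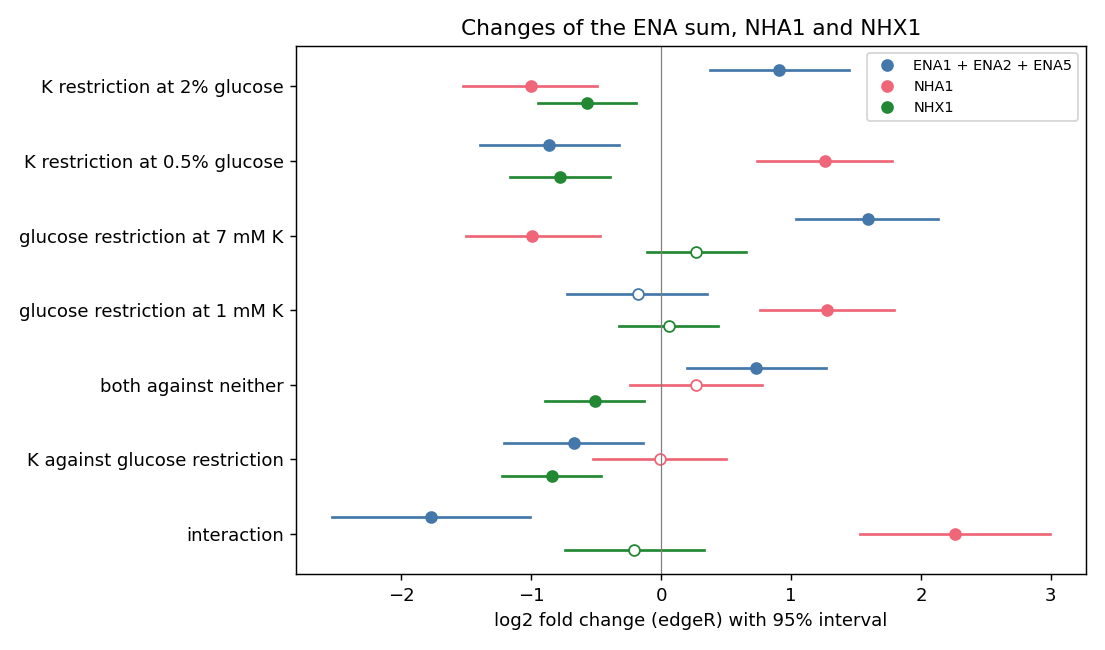
Log2 fold changes (points) with 95% intervals (lines) from edgeR for the ENA sum, NHA1 and NHX1 in the 7 comparisons, filled where the adjusted p was under 0.05. The ENA sum and NHA1 lie on opposite sides of 0 in both potassium comparisons and in the interaction, and NHX1 lies below 0 in both potassium comparisons.

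Calcineurin is the calcium-dependent phosphatase that activates Crz1, which in turn activates ENA1. Its list held 7 genes. CMP2, a catalytic subunit gene, fell in all 4 single-step comparisons, with log2 fold changes of -0.64, -0.60, -0.84 and -0.80. CRZ1 fell under potassium restriction at 2% glucose (-0.71 ± 0.18, edgeR adjusted p = 0.0125) and under glucose restriction at 7 mM K (-0.67 ± 0.18, edgeR adjusted p = 0.0134), the same comparisons in which the ENA sum rose. In both, CMP2 and CRZ1 fell and the other 5 genes missed the threshold, while 15.0% and 17.0% of all genes fell. RCN2, a calcineurin regulator gene, rose under potassium restriction at 0.5% glucose (1.62 ± 0.46, edgeR adjusted p = 0.0132), where CMP2 and CNA1 fell.

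The Ppz phosphatases lower ENA1 expression, and Sis2 (Hal3), Vhs3 and Cab3 bind or inhibit them. PPZ1 fell in all 4 single-step comparisons, by 0.88 to 0.95 on the log2 scale (edgeR adjusted p = 0.00182 to 0.00295). With both restrictions it fell by 1.82 (edgeR adjusted p = 1.59e-05). PPZ2 changed by -0.38 and -0.69 under potassium restriction at 2% and 0.5% glucose. Under glucose restriction at 7 and 1 mM K it changed by 0.36 and 0.05. Of these only -0.69 was called, and it was not without 0.5% glucose 7 mM K replicate 2 (-0.35, edgeR adjusted p = 0.0797). SIS2 passed in none of the 7 with all libraries, with log2 fold changes from -0.48 to 0.86. Without 0.5% glucose 7 mM K replicate 2 it rose under potassium restriction at 0.5% glucose (0.77, edgeR adjusted p = 0.0147) and glucose restriction at 1 mM K (0.70, edgeR adjusted p = 0.0143). CAB3 fell under potassium restriction at 2% glucose (-0.54 ± 0.14) and rose at 0.5% glucose (0.51 ± 0.14), with an interaction of 1.06 ± 0.20 (edgeR adjusted p = 0.00237). VHS3 rose under glucose restriction at 1 mM K (1.17 ± 0.24, edgeR adjusted p = 0.00275). Of the 5 genes, 0 rose and 2 fell under potassium restriction at 2% glucose, against 13.1% and 15.0% of all genes. At 0.5% glucose 1 rose and 2 fell, against 23.5% and 24.9%. Without 0.5% glucose 7 mM K replicate 2 these were 2 and 1, against 29.6% and 28.2%.

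Among 6 halotolerance genes, HAL1 fell in all 4 single-step comparisons, by 0.61 to 1.04 on the log2 scale. SAT4 (HAL4) and HAL5 encode kinases that stabilise the potassium transporter Trk1. SAT4 rose under potassium restriction at 0.5% glucose (1.89 ± 0.31, edgeR adjusted p = 0.000482) and glucose restriction at 1 mM K (1.72 ± 0.31, edgeR adjusted p = 0.00146), and had an interaction of 2.23 ± 0.43 (edgeR adjusted p = 0.00267). HAL5 fell under glucose restriction at 7 mM K (-2.10 ± 0.33, edgeR adjusted p = 0.000573). MET22 (HAL2), for a phosphatase that sodium inhibits, fell in the same comparison (-1.91 ± 0.30, edgeR adjusted p = 0.000578), and there 3 of 6 genes fell and 3 did not pass, against 17.0% of all genes that fell.

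In the osmotic stress kinase pathway of 13 genes, HOG1, for the kinase that ends the cascade, rose under potassium restriction at 0.5% glucose (2.33 ± 0.16, edgeR adjusted p = 1.54e-06), fell under glucose restriction at 7 mM K (-1.58 ± 0.16, edgeR adjusted p = 2.32e-05), and had an interaction of 2.11 ± 0.22 (edgeR adjusted p = 7.67e-05). At 2% glucose its change of 0.22 ± 0.15 did not pass (edgeR adjusted p = 0.305). PBS2, the kinase gene just above HOG1, fell under potassium restriction at 2% glucose (-0.78 ± 0.12, edgeR adjusted p = 0.000578), and SHO1, a membrane sensor gene, rose (0.66 ± 0.17, edgeR adjusted p = 0.0147). In that comparison 1 rose, 3 fell and 9 did not pass, against 13.1% and 15.0% of all genes. Without 0.5% glucose 7 mM K replicate 2 6 fell, against 23.9% of all genes. Under glucose restriction at 7 mM K 5 of 13 fell, against 17.0% of all genes, SKO1 among them (-0.76, or -0.48 without that library).

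The alkaline pH pathway activates Rim101, which represses NRG1, a repressor gene that acts on ENA1. RIM101 rose under potassium restriction at 0.5% glucose (0.78 ± 0.19, edgeR adjusted p = 0.0057) and under glucose restriction at 1 mM K (0.69 ± 0.19, edgeR adjusted p = 0.0146). Its interaction was 1.22 ± 0.27 (edgeR adjusted p = 0.00556). Its changes under potassium restriction at 2% glucose (-0.44) and glucose restriction at 7 mM K (-0.52) did not pass. Without 0.5% glucose 7 mM K replicate 2 both were called lower (-0.42, edgeR adjusted p = 0.0318, and -0.66, edgeR adjusted p = 0.00695). NRG1 fell under glucose restriction at 7 mM K (-0.93 ± 0.16, edgeR adjusted p = 0.000829) and at 1 mM K (-1.18 ± 0.16, edgeR adjusted p = 0.000256), and its potassium effects did not pass, except at 2% glucose without 0.5% glucose 7 mM K replicate 2 (0.40, edgeR adjusted p = 0.0135). The sensor gene DFG16 rose under glucose restriction at 1 mM K (2.96 ± 0.19, edgeR adjusted p = 6e-06). Of the 8 genes, 3 rose under potassium restriction at 0.5% glucose, 4 fell and 1 missed the threshold, against 23.5% and 24.9% of all genes.

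Among 15 genes of glucose repression, MIG1, the repressor with a known site at ENA1, changed by -0.46 ± 0.18 under potassium restriction at 2% glucose and by -0.20 ± 0.18 under glucose restriction at 7 mM K, and passed in neither (edgeR adjusted p = 0.0764 and 0.425). Without 0.5% glucose 7 mM K replicate 2 the former passed (-0.44, edgeR adjusted p = 0.0273). It rose under glucose restriction at 1 mM K (0.56 ± 0.18, edgeR adjusted p = 0.0314). SNF1, the kinase that inactivates Mig1, fell under potassium restriction at 2% glucose (-0.71 ± 0.21, edgeR adjusted p = 0.024) and at 0.5% glucose (-0.92 ± 0.21, edgeR adjusted p = 0.00347, or -0.58 without that library). TOS3, for a kinase that activates Snf1, fell by 2.36 under potassium restriction at 2% glucose and by 3.98 under glucose restriction at 7 mM K (edgeR adjusted p = 7.73e-06 and 3.74e-07). NRG2, a paralog of NRG1, rose by 2.96 ± 0.35 under potassium restriction at 2% glucose (edgeR adjusted p = 0.000117) and fell under glucose restriction at 1 mM K (-2.59 ± 0.35, edgeR adjusted p = 0.000279). In the first comparison 3 rose, 6 fell and the other 6 missed the threshold, against 13.1% and 15.0% of all genes.

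DAL80, a GATA repressor gene of nitrogen metabolism, rose in the same comparisons as the ENA sum, by 1.62 ± 0.45 under potassium restriction at 2% glucose (edgeR adjusted p = 0.0191) and by 3.50 ± 0.45 under glucose restriction at 7 mM K (edgeR adjusted p = 0.000135), and had an interaction of -2.55 ± 0.59 (edgeR adjusted p = 0.00761). The activator gene GLN3 fell in both comparisons (-0.62 ± 0.14 and -0.38 ± 0.14), and GAT1 fell under glucose restriction at 7 mM K (-1.11 ± 0.18, edgeR adjusted p = 0.000703). Of the 6 genes, 1 rose and 3 fell in that comparison, against 16.9% and 17.0% of all genes. Without 0.5% glucose 7 mM K replicate 2 GLN3 did not pass there (-0.33, edgeR adjusted p = 0.0643), and 2 fell, against 21.8% of all genes.

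Among 10 other transporters of alkali cations and protons, PHO89, for the transporter that brings sodium in with phosphate, had an interaction of -5.89 ± 0.94 (edgeR adjusted p = 0.000852), the same sign as the ENA sum. PMA1, the proton pump gene that drives the antiporters and the potassium uptake, had one of 4.94 ± 0.40 (edgeR adjusted p = 1.56e-05), the same sign as NHA1. PMA2, its paralog, which may share reads with it, had -4.76 ± 0.40 (edgeR adjusted p = 1.88e-05). The levels of PMA1 did not follow those of NHA1. PMA1 averaged 7329 CPM with 2% glucose and 7 mM K, 3204 with 2% glucose and 1 mM K, 119 with 0.5% glucose and 7 mM K and 1592 with both restrictions. Unlike NHA1, it was called lower with both restrictions than with neither (-2.20). PHO89 averaged 12.8, 1284, 363 and 610.2 CPM in the same order of media. With 0.5% glucose and 7 mM K its libraries spread from 54.6 to 678 CPM. Without replicate 2 of that group, glucose restriction at 7 mM K gave 5.33 in place of 4.82 for PHO89. Potassium restriction at 0.5% glucose then gave 0.25 in place of 0.75. TRK1 fell under potassium restriction at 0.5% glucose (-0.49 ± 0.16, edgeR adjusted p = 0.0248). VNX1, for a vacuolar sodium-proton exchanger, was called lower there (-1.12 ± 0.42, edgeR adjusted p = 0.0447), but without 0.5% glucose 7 mM K replicate 2 it was not (-0.23, edgeR adjusted p = 0.339). KHA1, for an internal potassium-proton antiporter, rose there (0.82 ± 0.27, edgeR adjusted p = 0.0238). VCX1, the vacuolar calcium-proton exchanger gene, fell under potassium restriction at 2% glucose (-1.66 ± 0.30, edgeR adjusted p = 0.00192) and had an interaction of 2.19 ± 0.42 (edgeR adjusted p = 0.00274). In the interaction 2 of 10 were higher, 2 lower and 6 did not pass, near the 14.8% and 15.2% of all genes.

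Of 11 other P-type ATPase genes, relatives of the ENA pumps that move calcium, copper, cadmium or lipids, 5 fell and 6 did not pass under potassium restriction at 2% glucose, and likewise under glucose restriction at 7 mM K, where 15.0% and 17.0% of all genes fell. PCA1, a cadmium exporter gene, fell in both (-0.96 ± 0.14 and -1.26 ± 0.14). In the interaction 6 were higher, 1 was lower and 4 did not pass, against 14.8% and 15.2% of all genes, and 2 were lower without 0.5% glucose 7 mM K replicate 2, against 23.6% of all genes. The lipid flippase genes DNF2 and DNF3 moved apart there, at 1.20 ± 0.27 and -0.78 ± 0.18 (edgeR adjusted p = 0.00583 and 0.00689).

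Of 4 genes for proteins that bind or escort Nha1, ERV14, a cargo receptor gene of the early secretory pathway, rose under glucose restriction at 7 mM K (0.48 ± 0.16, edgeR adjusted p = 0.0367), where NHA1 fell. Without 0.5% glucose 7 mM K replicate 2 it was not called (0.38, edgeR adjusted p = 0.0544). BMH2, a 14-3-3 gene, fell under potassium restriction at 2% glucose (-0.70 ± 0.23, edgeR adjusted p = 0.0384). BMH1, of the same list, changed by 0.36 there without a call. It rose there without 0.5% glucose 7 mM K replicate 2 (0.38, edgeR adjusted p = 0.0297). Of the 4 genes 0 rose and 1 fell there, against 13.1% and 15.0% of all genes. Without that library 1 rose and 1 fell, against 26.6% and 23.9%. Of 19 class E genes, which act with Nhx1 in endosomal sorting, 1 rose, 6 fell and 12 did not pass under potassium restriction at 2% glucose, where 13.1% of all genes rose and 15.0% fell, and 2 rose without 0.5% glucose 7 mM K replicate 2, against 26.6%. At 0.5% glucose 2 rose, 7 fell and 10 did not pass, against 23.5% and 24.9%. VPS27 fell in the first comparison (-0.56 ± 0.19, edgeR adjusted p = 0.0485), and VPS60 fell by 0.75 ± 0.13 in the second (edgeR adjusted p = 0.000846) and VPS28 by 1.10 ± 0.19 (edgeR adjusted p = 0.000589). VPS24 rose there (1.11 ± 0.18, edgeR adjusted p = 0.000515).

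The annotated neighbours are described in some of the comparisons. RSM10, a mitochondrial ribosomal protein gene that starts 1335 bases from ENA1 on the other strand, rose under glucose restriction at 7 mM K (1.54 ± 0.21, edgeR adjusted p = 0.000197) and at 1 mM K (1.37 ± 0.21, edgeR adjusted p = 0.000544). KRS1, the lysyl-tRNA synthetase gene 206 bases beyond the end of ENA5, fell under glucose restriction at 7 mM K (-2.20 ± 0.30, edgeR adjusted p = 0.000194). Beside NHA1, SLS1, 147 bases beyond its end on the other strand, fell under potassium restriction at 2% glucose (-1.02 ± 0.27, edgeR adjusted p = 0.0159), and RKM5 did not pass (-0.34 ± 0.37, edgeR adjusted p = 0.516). SLS1 also fell under glucose restriction at 7 mM K (-1.60), so it fell in both comparisons in which NHA1 fell. Under potassium restriction at 0.5% glucose, where NHA1 rose, SLS1 did not pass (0.47). Beside NHX1, the guanylate kinase gene GUK1 rose under potassium restriction at 2% and 0.5% glucose (0.96 ± 0.15 and 0.98 ± 0.15), and TOM1 did not pass in either (edgeR adjusted p = 0.0765 and 0.915), except at 2% glucose without 0.5% glucose 7 mM K replicate 2 (-0.70, edgeR adjusted p = 0.00584). No other annotated gene overlapped the 5 genes, but 683 SGD rows had no match in the annotation, and overlaps with those were not examined.

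Across the 12 libraries, among the 5503 genes that averaged 10 CPM or more, the log2 CPM of the ENA sum was most like that of GET4, a gene for insertion of tail-anchored proteins (Pearson r = 0.958), TNA1, the nicotinic acid permease gene (0.937), PHO87, a low-affinity phosphate transporter gene (0.924), DAL80 (0.909) and the vacuolar amino acid transporter gene VBA1 (0.909). NHA1 was most like MBF1, a coactivator gene (0.981), the repair gene RAD16 (0.963), YOR338W, of unknown function (0.959), RVS161, an endocytosis gene (0.944), and MDJ1, a mitochondrial chaperone gene (0.939). NHX1 was most like the checkpoint kinase gene MEC1 (0.982), the phosphatase gene PPH21 (0.982), the exocyst gene SEC5 (0.981), the nuclear pore gene MLP1 (0.974) and the vacuolar transporter gene BPT1 (0.953). These values are descriptions over libraries that fall into 4 groups, and without 0.5% glucose 7 mM K replicate 2 they lay between 0.908 and 0.978.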

How the data were processed

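RNA from 12 yeast libraries was sequenced as paired-end reads. Per the labels' protocols, reads were aligned to R64-1-1 with STAR 2.7.1a, and the submitters' processing notes also name RSEM 1.3.3 and genome build R64. The deposited values are expected counts per gene, as whole numbers (0 values were not whole). Of 7127 SGD rows, 6444 matched the supplied R64 annotation, and 39777 WBGene rows were set aside. Strand was not stated.

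With the default edgeR filter 6127 genes were tested. Scaling was by TMM on the SGD counts alone. The test was the robust quasi-likelihood F test of edgeR 4.0.16, with 4 group means, the 12 libraries together and 8 residual degrees of freedom, with Benjamini-Hochberg adjustment over all genes and a threshold of 0.05. For the ENA sum the 3 ENA rows were replaced by their sum. The p-values measure the spread among labelled biological replicates. Replicate numbers showed no sign of pairing libraries, and the main fit used no pairing.

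Alternatives were DESeq2 1.42.0, limma 3.58.1 voom with and without quality weights, 3 other scalings, 2 other filters, only the groups compared, a replicate block and each library left out. The procedure was tested on simulated data. The members and the gene lists were chosen with earlier results of these data known. The rule for naming genes took the 5 members, their neighbours and, per comparison, the called gene with the smallest p of each list in each direction. It also took a set of regulators whatever their values, and the 5 genes most like the ENA sum, NHA1 and NHX1. Values of CNA1, PPZ2, SKO1, MET22 and VPS60 fall outside that rule and were chosen after they were seen. So were values of BMH1, CAB3, NRG2, GLN3 and VCX1, in 1 comparison each. The rule was not followed in full. Genes with the smallest p of their list that are not described include QDR2, RIM21, VPS25, HSE1, SPF1, STE50, MIG3 and NEO1. Sequences were read from the RefSeq copy of R64.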

Additional observations from a re-analysis of the deposited data

Results flagged for a closer look

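The effect of potassium restriction differed between 2% and 0.5% glucose for 4 of the 5 genes and for the ENA sum. This rests on a test of the difference itself in edgeR, which 29.9% of all genes tested passed. Of the 4 genes, 3 are the ENA copies, which share reads, and the call of ENA5 ended in 6 of 12 fits with 1 library left out. In those 12 fits the difference for ENA5 ranged from -1.22 to -0.68. The log2 difference was -1.81 for ENA1 (adjusted p = 0.00524), -1.0 for ENA5 (adjusted p = 0.0272), -1.77 for the ENA sum (adjusted p = 0.00291) and 2.26 for NHA1 (adjusted p = 0.000548). For ENA2 it was -7.58 (adjusted p = 0.00047), a size that rests on 11 counts in the 3 libraries with both restrictions and ranged from -12.75 to -6.96 with single libraries left out.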

How the results depend on the processing

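Of 414 values of the 5 genes and the ENA sum under other settings, 364 kept their direction and side of the threshold, 22 lost a call, 18 gained one and 10 changed sign. With single libraries left out, 433 of 504 kept both. The ENA sum for both restrictions against neither was not called with library totals (0.71), WBGene scaling (0.60) or a replicate block (0.72). The replicate numbers showed no sign of pairing libraries (8 of 36 best matches, each among 3 libraries, were with the own number). With the block 1403 to 2742 genes were called, and the call of the ENA sum for potassium against glucose restriction was also lost (-0.65), as it was under upper-quartile scaling (-0.61), library totals (-0.54), WBGene scaling (-0.62), voom (-0.63) and with the groups compared alone (-0.66). For potassium restriction at 0.5% glucose the last setting gave -0.86 without a call. Voom with quality weights called the sum for glucose restriction at 1 mM K (-0.42). NHA1 at 2% glucose was not called under WBGene scaling (-0.71), nor NHX1 under upper-quartile scaling (-0.38), library totals (-0.33) and WBGene scaling (-0.27). The cause was not tested.

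Signs changed for values that did not pass the test. NHA1 for potassium against glucose restriction was 0.05, 0.14 and 0.07 under the 3 scalings and 0.00 with the replicate block. NHX1 for glucose restriction at 1 mM K was -0.06, -0.18 and -0.34 under the scalings and -0.06 with quality weights. ENA5 for both restrictions was -0.03 under WBGene scaling and -0.02 with quality weights. Other scalings moved the median log2 change of all genes, which lay between -0.26 and 0.19 over the comparisons under upper-quartile scaling and between -0.34 and 0.24 with library totals. Under WBGene scaling it was 0.30 and -0.34 for potassium restriction at 2% and 0.5% glucose, 0.23 and -0.45 for glucose restriction at 7 and 1 mM K and -0.63 for the interaction. Of 404 calls among the genes of the lists and those named, upper-quartile scaling lost 43, library totals 89 and WBGene scaling 130, with 3 changes of sign under the last (CMD1, PBS2 and YPK9).

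Leaving out single libraries gave, for the ENA sum, 0.85 to 1.03 and -1.06 to -0.76 for potassium restriction at 2% and 0.5% glucose, 0.61 to 0.79 for both restrictions and -0.87 to -0.55 for potassium against glucose restriction. ENA1 for glucose restriction at 1 mM K ranged from -0.19 to 0.03, and ENA5 from -0.07 to 0.13 for both restrictions and -0.12 to 0.41 for potassium against glucose restriction. NHA1 ranged from -0.04 to 0.39 for both restrictions and -0.10 to 0.11 for potassium against glucose restriction. NHX1 ranged from -0.64 to -0.50 for potassium restriction at 2% glucose, -0.61 to -0.47 for both restrictions and -0.05 to 0.11 for glucose restriction at 1 mM K. The genes called ranged from 1075 to 3111 for potassium restriction at 2% glucose, 2430 to 3565 at 0.5% glucose, 1455 to 2701 and 1667 to 3152 for glucose restriction at 7 and 1 mM K, 2276 to 3986 for both, 2070 to 2974 for potassium against glucose restriction and 1362 to 2927 for the interaction. Quality weights called 3859, 3682, 3791, 4690 and 3731 genes for potassium restriction at 2% glucose, glucose restriction at 7 and 1 mM K, both, and the interaction. The groups compared alone called 3390 and 1805 for potassium restriction at 2% and 0.5% glucose and 1462 for potassium against glucose restriction, and WBGene scaling called 1687 for the last. Without 0.5% glucose 7 mM K replicate 2, an alternative chosen after seeing the data and also fitted for each named gene, 123 of 168 counts over the lists stayed within 1.5 times. The interaction could not be fitted with fewer than 4 groups.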
